A study of Mus musculus with 2 samples.

Results

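Chromatin loops of middle length that touch no end of a protein-coding gene were compared between mouse cortex after stroke and after sham surgery. A loop was counted here when it lay on an autosome, joined anchors 100 kb to 1 Mb apart (between anchor midpoints), and had no start or end of a protein-coding gene in either anchor widened by 2.5 kb. Loops with both midpoints inside the same protein-coding gene were left out. The sham list held 4379 such loops among 14779 loops, and the MCAO list held 3893 among 15592. Every member rests on the deposited positions, and none was chosen by its number of tags. Just inside the lower limit, 74 sham and 95 MCAO members spanned 100 to 110 kb, and 83 and 92 loops with the same gene rule spanned 90 to 100 kb. At the upper limit, 203 and 159 members spanned 900 to 1000 kb, and 149 and 103 loops spanned 1000 to 1100 kb. Another 253 sham and 297 MCAO members had a gene end 2.5 to 5 kb from an anchor, and 364 and 476 loops were left out only through the 2.5 kb widening.

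The data are Hi-C loop lists from cerebral cortex, a method that ligates and sequences DNA segments lying near each other in the nucleus. In the MCAO group a filament advanced through the carotid artery closed the middle cerebral artery for 1 h, and the cortex of the operated side was taken after 6 h of reperfusion. Sham mice had the same surgery without the filament being advanced, and their cortex was taken after 6 h of recovery. The labels name 3 cortices per group but 1 library per group, do not state how the cortices were combined, and give neither strain, sex nor age. A filament occlusion injures part of one hemisphere, so the tissue holds injured and spared cells together. All values below come from 1 loop list per group, so differences between the conditions were not tested and rest on no replicates. Intervals are 95% intervals and cover at most counting error. The tissue was analysed in bulk, so a loop present in fewer cells and a loop that is weaker in each cell cannot be told apart.

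Loops form when the ring-shaped cohesin complex extrudes chromatin until it meets bound CTCF, an insulator protein, and when enhancers and promoters come together. Loops with both anchors away from gene ends join stretches between genes or inside gene bodies, where distant enhancers and boundaries of folded domains lie. Gene deserts are long stretches without protein-coding genes. In brain they often border genes for cell adhesion and developmental transcription factors, and they can hold enhancers that act over long distances.

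The non-coding genes within the anchors give these places a sequence. A hub on chromosome 13 joined 3 places with starts of long non-coding RNAs (lncRNAs). It lies between Mef2c, a transcription factor of neuronal differentiation, and Ccnh, a cyclin gene. The first place holds a start of C130071C03Rik and, within that gene, Mir9-2, a precursor of the brain microRNA miR-9. The second holds the start of Gm17750 and the third that of Gm41011. In the sham loops described below that joined the third place, the anchor there did not hold the whole promoter of Gm41011. The 3 promoters shown are those of this hub, and each lies wholly in an anchor of 6 to 8 loops counted here. Some promoters elsewhere did so too and are not shown, such as those of Gm4258 with 7 loops and 4930440I19Rik with 6. They come from RefSeq on GRCm38.p6, run from 250 bases before to 50 bases after a transcript's start, and have every CG dinucleotide in capitals. C130071C03Rik is at chr13:83732243-83732542 on the plus strand, Gm17750 at chr13:84064725-84065024 on the minus strand and Gm41011 at chr13:84343643-84343942 on the plus strand.
C130071C03Rik: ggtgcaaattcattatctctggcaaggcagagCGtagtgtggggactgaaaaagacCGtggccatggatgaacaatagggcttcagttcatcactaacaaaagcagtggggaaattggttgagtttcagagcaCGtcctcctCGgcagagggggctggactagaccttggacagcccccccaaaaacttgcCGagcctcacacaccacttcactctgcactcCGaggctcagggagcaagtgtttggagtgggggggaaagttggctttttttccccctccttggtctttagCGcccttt
Gm17750: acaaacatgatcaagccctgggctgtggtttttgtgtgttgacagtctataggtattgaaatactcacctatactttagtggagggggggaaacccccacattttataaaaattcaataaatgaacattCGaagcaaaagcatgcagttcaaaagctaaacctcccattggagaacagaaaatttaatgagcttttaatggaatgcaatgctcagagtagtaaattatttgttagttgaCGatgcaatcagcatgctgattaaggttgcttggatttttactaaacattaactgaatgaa
Gm41011: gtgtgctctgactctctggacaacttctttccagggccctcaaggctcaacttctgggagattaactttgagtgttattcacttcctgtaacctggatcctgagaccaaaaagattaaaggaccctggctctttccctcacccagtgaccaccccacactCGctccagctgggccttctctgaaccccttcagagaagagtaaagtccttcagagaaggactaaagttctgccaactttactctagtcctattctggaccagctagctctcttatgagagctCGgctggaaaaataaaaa
The printed promoter of C130071C03Rik holds 7 CG dinucleotides and the other promoters 2 each. Windows at other starts of C130071C03Rik hold 12 and 4, and lie in anchors of 4 and 5 loops. Over the 1615 promoters of lncRNAs in anchors of these loops the median was 3 CG dinucleotides, against 4 over all 11588 lncRNA promoters and 13 over the 21263 protein-coding promoters of the same length. Promoters of lncRNAs beside protein-coding gene ends are left out of the 1615 by the rule. Its part in the difference from all lncRNA promoters was not tested.

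Of the microRNA hairpins on autosomes (919 in RefSeq), 109 lay wholly in an anchor of these loops, 81 in sham, 52 in MCAO and 24 in both. One sham anchor on chromosome 12, in a loop of 47 PETs, held 38 of these, and 9 of the 38 were also in an MCAO loop of 10 PETs. Without them there were 43 hairpins in sham and 43 in MCAO, so the higher sham number came from that anchor. The mature sequences below belong to known brain microRNAs among the 12 hairpins with at least 3 loops, with the seed (bases 2 to 8), the part that pairs with target RNAs, in capitals.
miR-9-5p: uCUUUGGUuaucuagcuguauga
miR-9-3p: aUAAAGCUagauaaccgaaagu
miR-30a-5p: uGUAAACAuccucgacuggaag
miR-30c-5p: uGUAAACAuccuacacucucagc
miR-137-3p: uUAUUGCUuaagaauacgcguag
miR-125b-5p: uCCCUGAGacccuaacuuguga
The miR-30a-5p and miR-30c-5p strands share the seed GUAAACA and lie in one cluster on chromosome 1, between Rims1, a gene of presynaptic vesicle release, and Ogfrl1. The seeds of the others differ from it and from each other.

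Loops away from gene ends made up a smaller share of mid-range loops after MCAO, and fewer of them were listed. The ratio of members, MCAO over sham, was 0.889 (0.851 to 0.928). The MCAO library was the deeper of the pair, with 40550536 paired-end tags (PETs) against 34974213, so members per 1000000 PETs were 125 in sham and 96.0 in MCAO, a ratio of 0.767. Loops with both anchors at gene ends numbered 2025 in sham and 2395 in MCAO, a ratio of 1.18 (1.11 to 1.26). Loops with 1 anchor at a gene end numbered 3641 and 4571, a ratio of 1.26 (1.20 to 1.31). Loops inside a single gene numbered 635 and 585. Members thus made up 41.0% of mid-range autosomal loops in sham and 34.0% in MCAO, a difference of -6.98 percentage points (-8.26 to -5.71). With the MCAO tags taken to the sham depth, by the expected number of loops that keep 10 PETs, the ratio of members was 0.626. The same step took all other mid-range loops from a ratio of 1.20 to 0.930, with 0.941 at loops between gene ends and 0.975 at loops with 1 anchor at a gene end. At equal depth members were thus further below sham than loops at gene ends, and the higher numbers at gene ends were seen only as listed. Loops inside a single gene went from a ratio of 0.921 (0.822 to 1.03) to 0.642. The low ratio at equal depth was therefore not particular to members.

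The shortfall was largest among loops held within a single stretch between neighbouring genes. Loops with both anchor midpoints in 1 gene-free interval numbered 1804 in sham and 1313 in MCAO, a ratio of 0.728 (0.677 to 0.782), and made up 41.2% and 33.7% of members. The other members numbered 2575 and 2580, a ratio of 1.00 (0.948 to 1.06). Among these, loops joining different intervals numbered 711 and 706, loops with 1 anchor in a gene body 1467 and 1483, and loops between different gene bodies 397 and 391. As listed, the intervals of these ratios all hold 1. At the sham depth the ratio was 0.499 inside 1 interval and 0.715 for the other members, with 0.720, 0.721 and 0.682 in these classes, so the other members also lay below the 0.930 of other mid-range loops.

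**Figure D1:**
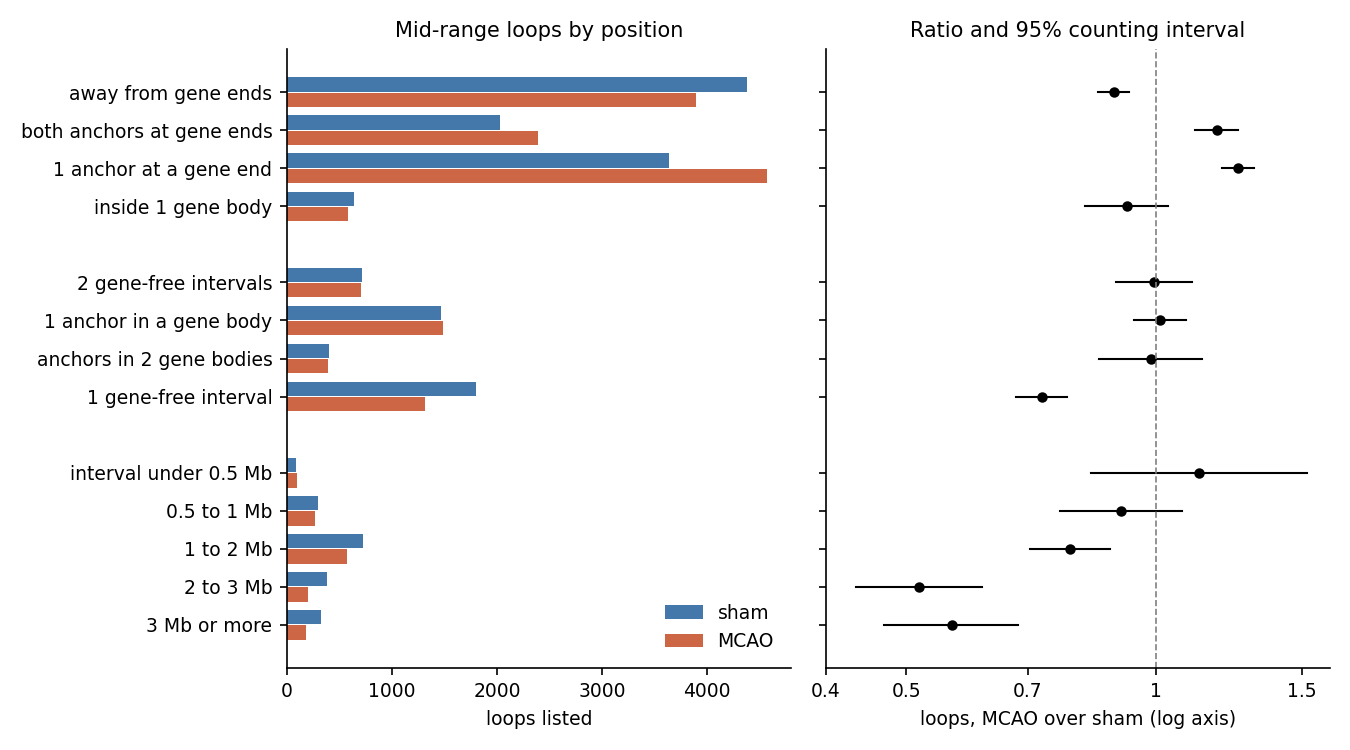
Loops listed in sham (blue) and MCAO (red) by position, with the ratio MCAO over sham on a log axis; points are ratios and lines are 95% counting intervals for 1 library per group. The top block divides all mid-range loops, the middle block divides loops away from gene ends, and the bottom block divides those inside 1 gene-free interval by its length: the ratio was 1.13 under 0.5 Mb and 0.567 at 3 Mb or more. Numbers are as listed, with no scaling for depth; at the sham depth the ratios above 1 fall below it.

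The longer the gene-free interval, the lower the ratio tended to be. In intervals under 0.5 Mb there were 87 sham and 98 MCAO loops, a ratio of 1.13 (0.835 to 1.52). In intervals of 0.5 to 1 Mb the ratio was 0.908 (0.766 to 1.08), with 293 and 266 loops. In intervals of 1 to 2 Mb it was 0.788 (0.705 to 0.881), with 723 and 570 loops. At 2 to 3 Mb it was 0.518 (0.434 to 0.617), with 380 and 197 loops. At 3 Mb or more it was 0.567 (0.470 to 0.682), with 321 and 182 loops, so the last classes do not differ beyond their intervals. At the sham depth the ratios from the shortest class to the longest were 0.792, 0.654, 0.548, 0.324 and 0.376. Reads at the anchors, given per kb of anchor and per 1000000 PETs and called anchor coverage from here on, were also thinner in MCAO in the long intervals. The median loop in an interval of 2 Mb or more had an anchor coverage of 0.600 in sham and 0.480 in MCAO, and members outside single intervals had 0.625 and 0.607. Loop spans differed by interval length too, with sham medians of 137, 347, 479, 484 and 458 kb from the shortest class to the longest. In MCAO these medians were 152, 317, 427, 350 and 329 kb. The parts of anchor coverage and of span in the loop numbers were not tested.

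Autosomes hold 600 gene deserts, defined here as gaps of at least 0.5 Mb between protein-coding genes, with 713 Mb in all. Of these, 411 held a sham loop, 382 an MCAO loop, 325 both and 132 neither. Desert loops numbered 1717 in sham and 1215 in MCAO, 39.2% and 31.2% of members. A desert so defined can hold lncRNA genes: with every RefSeq gene counted, 4.16% of sham and 3.26% of MCAO members stayed in 1 desert.

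Members were shorter in MCAO, and so were the other mid-range loops. Sham members had a median span of 437 kb (427 to 447), and MCAO members one of 375 kb (365 to 385). All other mid-range loops had medians of 358 kb in sham and 320 kb in MCAO. Their wider anchor had a median of 32.0 and 27.9 kb, against 33.2 and 31.3 kb in members. Loops of 100 to 200 kb numbered 629 and 768, a ratio of 1.22 (1.10 to 1.36). Loops of 200 to 400 kb numbered 1313 and 1317. Loops of 400 to 600 kb numbered 1209 and 931, a ratio of 0.770 (0.706 to 0.839), and loops of 600 to 1000 kb 1228 and 877, a ratio of 0.714 (0.654 to 0.779). The shortest loops too were fewer in MCAO at the sham depth, with a ratio of 0.829, against 0.508 at 600 to 1000 kb. Anchor width moved with these counts. Members whose wider anchor was under 20 kb numbered 866 in sham and 1182 in MCAO, a ratio of 1.36 (1.25 to 1.49), against 0.761 (0.714 to 0.811) at 20 to 40 kb and 0.790 (0.727 to 0.858) at 40 kb or more. Taken to the sham depth these were 0.904, 0.453 and 0.734. Inside 1 gene-free interval the ratios in the same width classes were 1.04 (0.847 to 1.29), 0.678 (0.615 to 0.748) and 0.717 (0.633 to 0.812). With depth made equal they were 0.651, 0.374 and 0.664. The narrow class, with 179 and 187 loops, thus showed no shortfall as listed and one at equal depth. How the caller sets anchor width is not given in the sources used here, and its part in the counts was not tested.

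Most members rested on few tags. Both lists start at 10 PETs per loop, the median was 12 PETs in each, and 46.2% of sham and 41.5% of MCAO members had 10 or 11. Loops of 51 PETs or more numbered 28 in sham and 23 in MCAO, and 26 and 21 of these had an anchor of at least 50 kb, as against 15.0% and 12.8% of all members. The tag number of a loop thus goes with the width of its anchors, with a Spearman correlation of 0.54 over 4379 sham loops and 0.40 over 3893 MCAO loops. These values describe loops of one library that share its depth, and loops are not replicates. Many anchors were shared, since 56.1% of sham and 57.1% of MCAO members had an anchor that overlapped an anchor of another member, and up to 9 and 7 loops met at 1 anchor.

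The fraction of members found again in the other list was low and lowest inside gene-free intervals. A partner was a loop of the other list with both midpoints within 1 anchor width, the wider anchor counting. Among all mid-range autosomal loops 70.4% of sham and 71.8% of MCAO loops had no partner. Of members, 20.4% (19.3 to 21.7) in sham and 24.1% (22.8 to 25.5) in MCAO had one. Inside 1 gene-free interval the share was 10.1% (8.79 to 11.6) in sham and 12.7% (10.96 to 14.6) in MCAO. Other members had 27.7% (25.9 to 29.4) and 29.9% (28.2 to 31.7), and mid-range loops at gene ends had 38.1% and 31.4%. Mid-range loops inside a single gene had 16.2% in sham and 16.2% in MCAO, so a low share was not particular to members. Within the narrowest anchors, under 20 kb, 14.5% of sham and 16.0% of MCAO loops inside an interval had a partner, against 40.03% and 36.7% of other members. At 40 kb or more the shares were 14.5% and 19.04% against 32.0% and 34.0%. The gap thus held in each list at these widths.

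**Figure D2:**
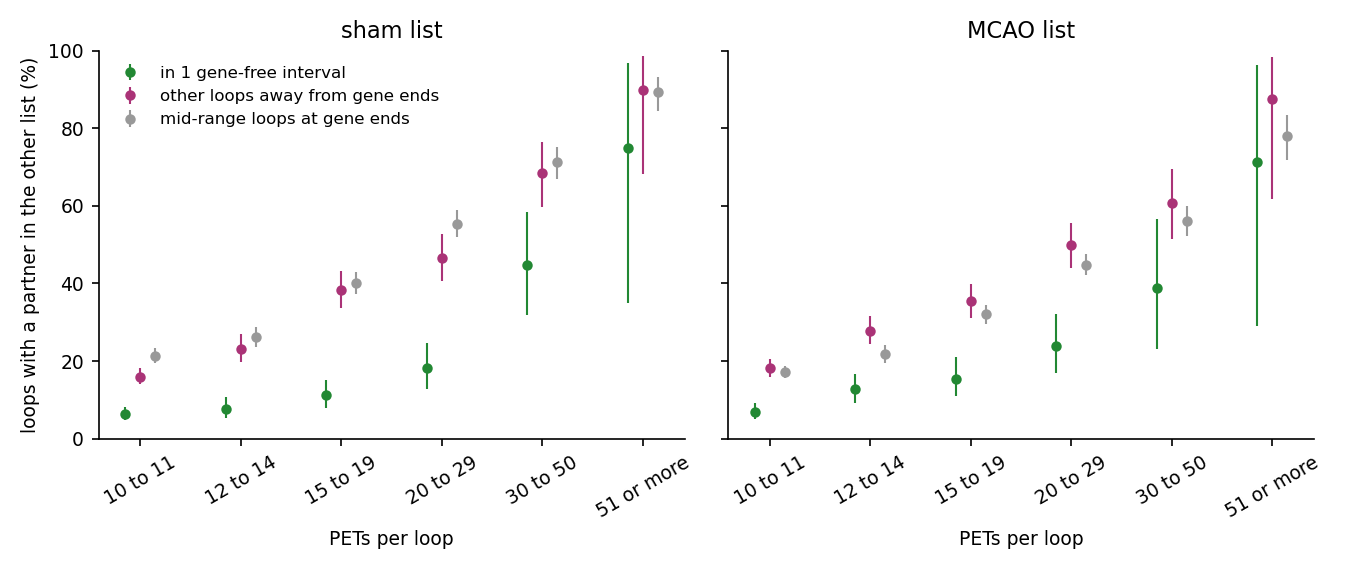
Share of loops with a partner in the other list (percent, vertical axis) by PETs per loop (horizontal axis) for the sham list and the MCAO list; points are shares and lines exact 95% intervals. Loops inside 1 gene-free interval (green) lie below other members (purple) in each class up to 30 to 50 PETs, for example 6.30% against 16.0% at 10 to 11 PETs in sham.

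The share was higher at higher PET numbers in each class of position. Inside gene-free intervals it went from 6.30% of sham loops at 10 to 11 PETs to 18.1% at 20 to 29 and 44.8% (31.7 to 58.5) at 30 to 50. In other sham members the same classes had 16.0%, 46.6% and 68.5%. At 51 PETs or more there were 8 sham and 7 MCAO loops inside an interval, of which 6 and 5 had a partner, and the intervals overlap those of other members. Of the 895 sham members with a partner, 659 had one that was a member itself, and 182 had one with an anchor at a gene end.

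Mutually nearest partners gave 801 pairs of a sham member and an MCAO loop of any class, called member pairs and placed by their sham loop. An MCAO loop reaching a gene end could thus enter, but such a sham loop could not. The part of this in the ratios below was not tested. Among all 2899 mid-range pairs made in this way, 8.55% had at least 2-fold more PETs per 1000000 in MCAO and 19.3% at least 2-fold fewer. Of the 801 member pairs 87 had at least 2-fold more and 117 at least 2-fold fewer. Their median log2 ratio of PETs per 1000000 was -0.10 (-0.21 to -0.05), with quartiles of -0.65 and 0.44, and the direction turned to 0.12 when PETs were not scaled for depth. The 161 pairs inside 1 gene-free interval had a median of -0.21 (-0.35 to -0.09), and their anchor coverage had a median log2 ratio of -0.19. In the 421 pairs whose anchor widths differed by at most 1.5 times, 2 had at least 2-fold more and 13 at least 2-fold fewer, with a median of -0.15. Large ratios among shared pairs therefore came with unequal anchors.

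The pairs with most tags were of both kinds. Lmo3 is a LIM-domain transcription regulator of forebrain neurons, and the pair between Lmo3 and Rergl on chromosome 6 had 73 PETs in sham and 113 in MCAO at widest anchors of 121 and 148 kb. The pair between Flrt2, an adhesion and guidance receptor, and Galc, a lysosomal enzyme of myelin lipid turnover, had 69 and 82 PETs at 131 and 115 kb. The pair from 4921524L21Rik to Mpp7, a scaffold protein gene, had 119 and 51 PETs at 156 and 73.8 kb. Between Gpr158, a receptor gene of neurons, and Apbb1ip the pair had 18 and 152 PETs at 17.5 and 178 kb, and it spans Myo3a and Gad2, the gene of a GABA-synthesising enzyme of inhibitory neurons. Between Aebp2 and Pde3a it had 10 and 120 PETs at 13.2 and 142 kb. In the last pairs the tags and the anchor widths were both several-fold larger in MCAO. Their MCAO loops exceed 113 PETs, the most of any MCAO member, so they are not members themselves.

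Among the loops without any partner, those with most PETs were wide too. In sham these were the loops between Hs3st1 and Rab28 with 66 PETs, Wdr20rt and Rpl10l with 61, Rbms1 and Tank with 59, Mindy3 and Rsu1 with 58, and Gpatch2 and Esrrg, a nuclear receptor gene, with 50. In MCAO they were the loops between Usp25 and Cxadr with 83, Id2, an inhibitor of basic helix-loop-helix factors, and Rnf144a with 64, Runx1t1 and Slc26a7 with 61, Lcorl and Slit2, a repulsive guidance cue, with 51, and Ccer1 and Atp2b1, a calcium pump gene, with 48. Each list thus held loops of this strength that were unmatched in the other. The loops with most PETs in sham were that of 119 PETs above, then 90 at Trpa1 to Kcnb2, 81 at Defb41 to Tfap2d, and 78 each at Bcl11a to Ccdc85a and Spata5 to Ankrd50. In MCAO they were 113 at Lmo3 to Rergl, 100 at Spertl to Dach1, 92 at Upp2 to Dapl1, 83 at Usp25 to Cxadr and 82 at Flrt2 to Galc.

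Gene-free intervals with a member loop numbered 607. Fewer loops were listed in MCAO in 323 of these (53.2%) and more in 209 (34.4%). A difference of at least 5 loops was found in 49 intervals with fewer and 7 with more. The interval with most loops lies between Tenm2, a teneurin adhesion gene of synapses, and Mat2b (chr11:37237054-40679313, 3.44 Mb), with 19 sham and 15 MCAO loops of which 5 each had a partner. The interval between Celf4, a neuronal RNA-binding protein gene, and Pik3c3 (4.51 Mb) had 18 and 12 loops, none with a partner. Between Cntnap5b and Cdh20, a cadherin gene, there were 16 and 11 loops, and between Slc10a2 and Efnb2, an ephrin guidance ligand, 14 and 11.

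**Figure D3:**
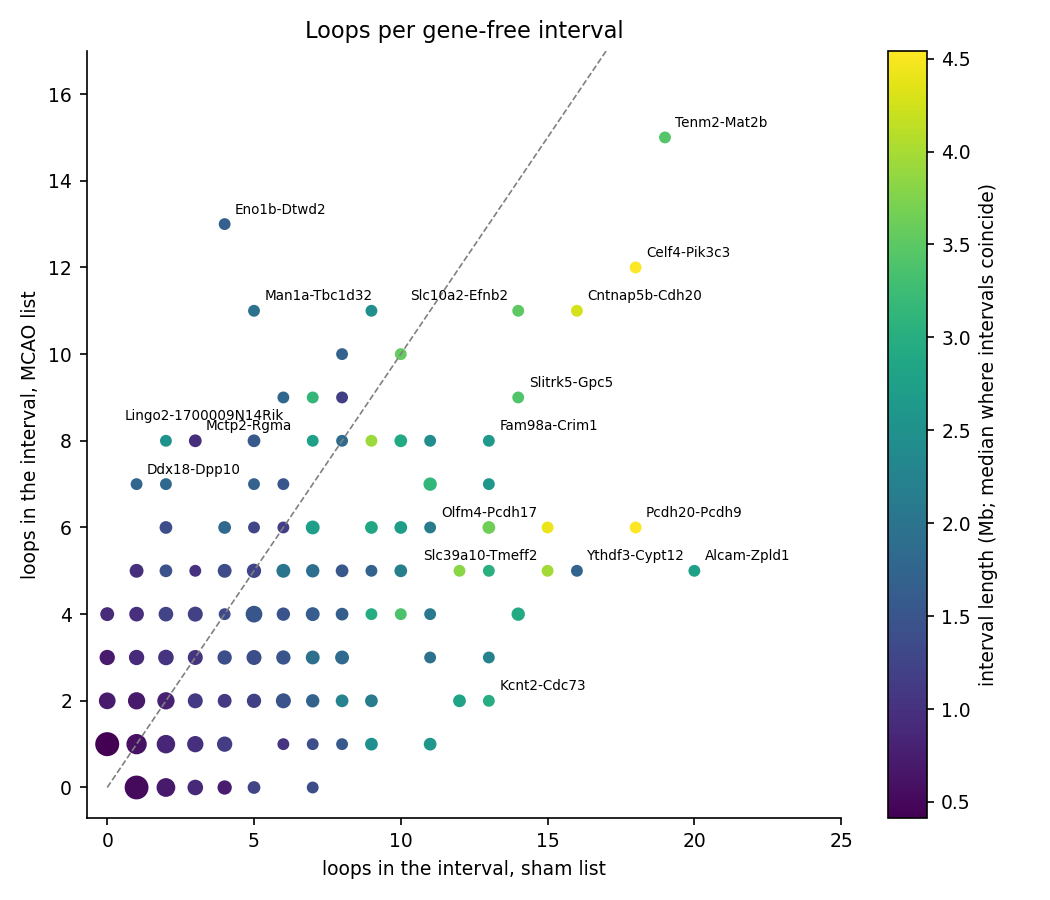
Loops per gene-free interval in the sham list (horizontal axis) and the MCAO list (vertical axis); a point is an interval or several at the same place, larger with more intervals and coloured by length in Mb, and the dashed line marks equal numbers. Named points are those the text describes: Alcam-Zpld1 has 20 and 5 loops and Eno1b-Dtwd2 has 4 and 13.

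The interval with the largest deficit in MCAO lay beside an adhesion gene. Between Alcam, an immunoglobulin adhesion gene of axons, and Zpld1 (chr16:52453082-55224124, 2.77 Mb) 20 sham loops of 10 to 26 PETs and 5 MCAO loops of 12 to 16 PETs were listed. The anchor coverage of these loops was 0.605 in sham and 0.463 in MCAO. Between Pcdh20 and Pcdh9, protocadherin genes (chr14:88471397-93013699, 4.54 Mb, the longest autosomal desert), there were 18 loops of 10 to 21 PETs and 6 of 10 to 14, with an anchor coverage of 0.623 and 0.449. Between Ythdf3, a reader of methylated RNA, and Cypt12 there were 16 and 5 loops, with an anchor coverage of 0.808 and 0.751. Between Kcnt2, a potassium channel gene, and Cdc73 there were 13 and 2, and between Slc39a10, a zinc transporter gene, and Tmeff2 15 and 5. Intervals with many loops in both lists had deficits as well: 15 and 6 between Olfm4 and Pcdh17, 14 and 9 between Slitrk5 and Gpc5, and 13 and 8 between Fam98a and Crim1. With at least 15 PETs, Alcam to Zpld1 had 4 and 1 loops, Pcdh20 to Pcdh9 4 and 0, and Ythdf3 to Cypt12 8 and 3.

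Some deserts went the other way. Between Eno1b and Dtwd2 (chr18:48048380-49696144, 1.65 Mb) 4 sham loops of 10 to 33 PETs and 13 MCAO loops of 10 to 27 PETs were listed, with 1 in each list having a partner. With at least 15 PETs there were 3 and 6. Between Man1a and Tbc1d32 there were 5 and 11 loops, between Ddx18 and Dpp10, a gene for a potassium channel partner, 1 and 7, and between Lingo2, a leucine-rich repeat gene of neurons, and 1700009N14Rik 2 and 8. Between Mctp2 and Rgma, a repulsive guidance molecule gene, there were 3 and 8. Anchor coverage was lower in MCAO in 3 of these 5 intervals, among them 0.590 and 0.478 between Eno1b and Dtwd2. It was about equal in the others, 0.522 and 0.527 between Ddx18 and Dpp10 and 0.504 and 0.511 between Mctp2 and Rgma. At the sham depth all 5 still had more loops in MCAO, with 10.1 expected between Eno1b and Dtwd2 and 3.63 between Lingo2 and 1700009N14Rik.

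The genes that flank or lie within loops were grouped by lists of 19 kinds. A gene was paired with a loop when it was the first gene outward of an anchor, held an anchor in its body or lay wholly between the anchors, and neighbouring genes share loops. Over all genes there were 11348 pairs in sham and 10437 in MCAO, a ratio of 0.920 (0.896 to 0.945). These pairs came from 4379 and 3893 loops. Intervals of pair ratios take pairs as independent, so they are too narrow where a loop is counted for several genes. Of 5842 genes with a pair 43.7% had more in MCAO and 41.9% fewer, 1.01% had at least 5 more and 3.51% at least 5 fewer. At the sham depth the ratio of pairs was 0.647 over all genes. List genes with at least 3 loops in a list and more in MCAO numbered 45. Of these 33 still had more at that depth, Cdh7, Grm7, Slitrk1 and Tenm4 not among them. The step lowers MCAO numbers alone, so the 106 list genes with fewer could only stay lower.

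Cadherins and protocadherins, calcium-dependent adhesion proteins that sort neurons and shape synapses, had 340 sham and 183 MCAO pairs, a ratio of 0.538 (0.447 to 0.646). The pairs came from 250 and 146 loops. Of 25 genes 22 had a loop, and 15 had fewer pairs in MCAO and 3 more. Pcdh9 had 31 and 10, Pcdh20 28 and 8, Cdh8 33 and 14, and Pcdh17 27 and 14. Cdh2, the neural cadherin, had 14 and 14, Cdh6 12 and 12, and Cdh7 5 and 8, so the list was not uniform. These genes border long intervals, with a median of 3117 kb for the longer interval beside a gene. Within intervals of 2 Mb or more the ratio was 0.572 (0.447 to 0.729) for the list and 0.541 (0.494 to 0.591) for all genes. Over the other loops it was 0.497 (0.372 to 0.658) for the list and 0.973 (0.946 to 1.00) for all genes. The other loops include those inside single intervals under 2 Mb, and those with an anchor in a gene. Interval lengths among them were not matched between the list and all genes, here or in the lists below. Their part in the ratios was not tested. At the sham depth the ratio of the cadherin and protocadherin list was 0.351.

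Synaptic adhesion genes had 329 and 196 pairs, a ratio of 0.596 (0.497 to 0.713), with 25 genes with fewer pairs in MCAO and 3 with more. Cadm2, a synaptic immunoglobulin adhesion gene, had 25 and 6, Cntn5, a contactin, 15 and 2, and Cntn4 6 and 0. Slitrk1 had 13 and 14, and Tenm4 8 and 9. Outside intervals of 2 Mb or more the ratio was 0.575 (0.442 to 0.743). Axon guidance genes had 176 and 118 pairs, a ratio of 0.670 (0.526 to 0.851), with 20 genes with fewer and 9 with more. Epha5, an ephrin receptor gene, had 8 and 1, Epha7 18 and 9, and Dcc, the netrin receptor, 12 and 7. Several class 3 semaphorin genes, which encode secreted repellents, had more: Sema3a 1 and 4, Sema3c 1 and 4, and Sema3e 0 and 3. The directions within guidance genes therefore differed by gene, with few loops at each semaphorin.

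**Figure D4:**
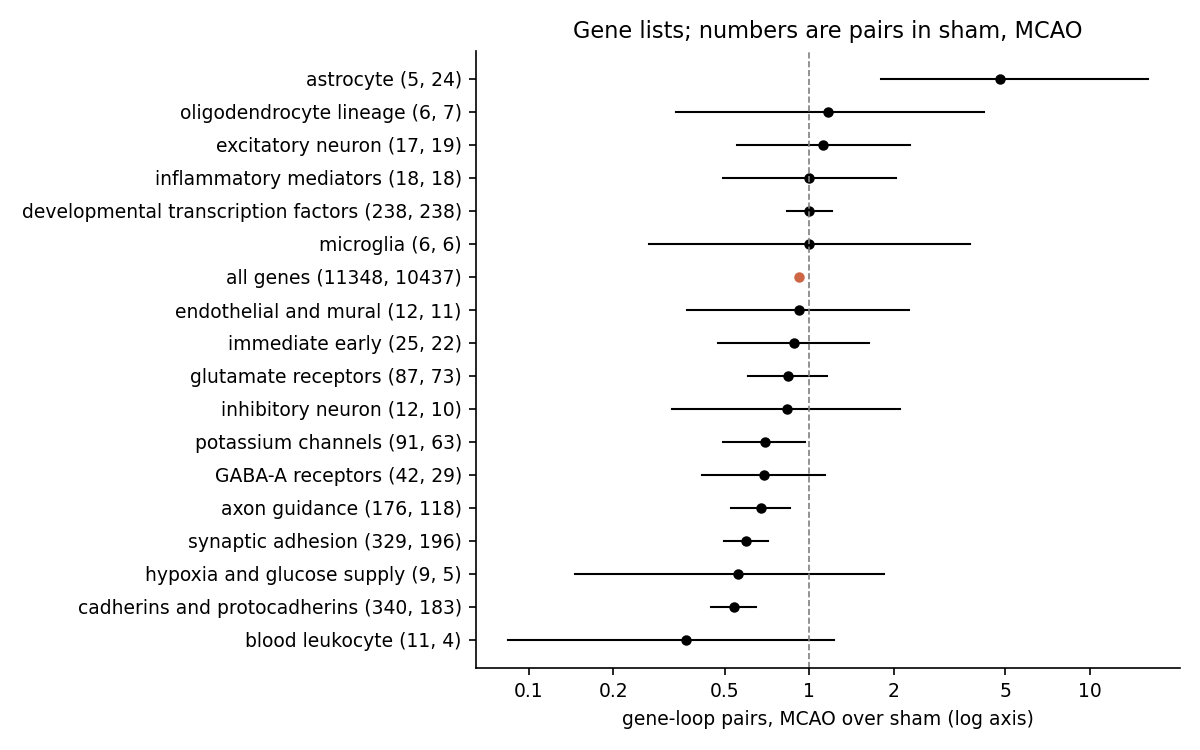
Ratio of gene-loop pairs, MCAO over sham, by gene list (log axis), with the pairs in sham and MCAO in brackets; points are ratios, lines 95% counting intervals, and the red point is all genes (0.920). Pairs are as listed, with no scaling for depth. The lines take pairs as independent and are too narrow where a loop is counted for several genes. Cadherins and protocadherins lie at 0.538 and astrocyte genes at 4.80; lists with fewer than 10 pairs are not drawn.

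Developmental transcription factor genes had 238 pairs in each list, a ratio of 1.00 (0.832 to 1.20) and of 0.704 at the sham depth, with 25 genes with more and 21 with fewer. Zfhx3, a homeodomain factor gene of neurons, had 1 loop of 14 PETs in sham and 11 loops of 10 to 31 PETs in MCAO, none with a partner. All 12 of these lie at its flanks or with an anchor in its body. Foxp1 had 6 and 12 loops, Meis2 2 and 7, and Zic1 1 and 6. Zfhx4 had 10 and 2 loops and Pou3f2 14 and 6. Within intervals of 2 Mb or more the list had 36 and 17 pairs, and elsewhere 202 and 221, a ratio of 1.09 (0.900 to 1.33).

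Mef2c had 21 sham and 13 MCAO loops, 7 of each with a partner, and it borders the hub of lncRNA promoters printed above. The anchor of Mir9-2 and C130071C03Rik met that of Gm17750 with 40 PETs in sham and 28 in MCAO, at spans of 326 and 327 kb. It met Gm41011 with 30 and 50 PETs at 611 and 614 kb, across Tmem161b. Gm17750 met Gm41011 with 19 and 17 PETs at 287 and 284 kb. In both MCAO loops the Gm41011 anchor held the printed window whole, whereas in the sham loop of 30 PETs it lay within the gene, past the start, and in that of 19 PETs it began inside the window. The 3 places were therefore joined pairwise in both lists. On the other side of Mef2c, a loop of 995 kb in the gap towards Cetn3 had 72 PETs in sham, and its partner of 989.96 kb in MCAO had 44. Mir9-2 lay in anchors of 4 sham loops of 14 to 40 PETs and 3 MCAO loops of 28 to 50 PETs, whereas the Mir30a hairpin had 0 sham and 3 MCAO loops. Mir30c-2 had 1 and 3, Mir137 2 and 1, and Mir125b-1 2 and 1. The last pair of Mir125b-1 had 20 PETs in each list, at spans of 372 and 368 kb.

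**Figure D5:**
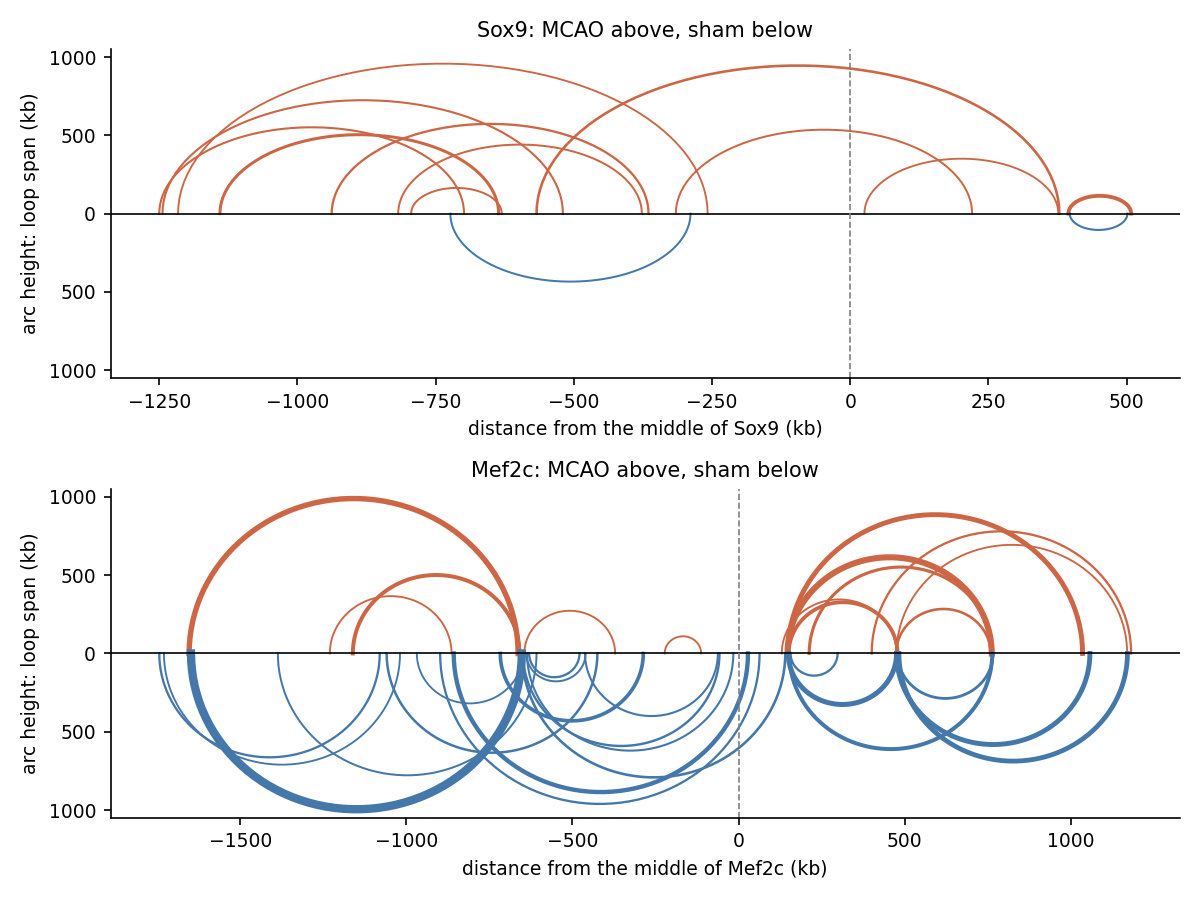
Loops away from gene ends around Sox9 (top) and Mef2c (bottom) by distance from the middle of the gene in kb; arcs above the line are MCAO (red) and below it sham (blue), arc height is the span in kb and line width grows with PETs. Sox9 has 11 MCAO and 2 sham loops, and Mef2c has 13 MCAO and 21 sham loops. Both loci were chosen after their values were seen.

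At astrocyte genes 5 pairs were listed in sham against 24 in MCAO, a ratio of 4.80 (1.80 to 16.1), with 5 of the 6 genes with a loop having more in MCAO and 0 fewer. Sox9, the transcription factor that specifies astrocytes, had 2 and 11. Aqp4, their water channel, had 1 and 4, Gja1, the gap junction protein connexin 43, 0 and 4, Slc1a2, a glutamate transporter, 0 and 2, and Slc1a3 1 and 2. Without Sox9 the list had 3 and 13 pairs, a ratio of 4.33 (1.19 to 23.7). The whole list had a ratio of 3.36 at the sham depth. The 2 sham loops at Sox9 had 11 and 12 PETs, and the 11 MCAO loops 10 to 29. With at least 15 PETs they numbered 0 and 3. In both lists 1 loop of Sox9 was shared, a short loop towards Slc39a11 with 12 and 29 PETs. Of the MCAO loops 4 span Gm11677 and have Sox9 as the first gene outward on one side, and 2 span Sox9. The nearest anchor midpoint lay 25.7 kb from the middle of the gene. The rule leaves out loops with an anchor at either end of Sox9. The loops counted here thus describe its surroundings, and contacts of its promoter were not examined.

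The other marker lists had few loops. Microglia genes had 6 and 6 pairs, endothelial and mural genes 12 and 11, oligodendrocyte genes 6 and 7, excitatory neuron genes 17 and 19, and inhibitory neuron genes 12 and 10, and the intervals of these ratios all hold 1. Blood leukocyte genes had 11 and 4, of which Ptprc, the pan-leukocyte phosphatase CD45, had 10 and 4. Loop numbers at marker genes are no measure of the cells present.

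Genes known to respond to ischemia were thinly covered. Immediate early genes had 25 and 22 pairs, a ratio of 0.880 (0.473 to 1.63). Egr2 had 0 and 3 loops, Fos 0 and 2, Nr4a2 7 and 3, and Nr4a3 5 and 1. Inflammatory mediators had 18 and 18, of which Tlr4, a receptor of innate immunity, had 12 and 10. Hypoxia and glucose supply genes had 9 and 5, heat shock genes 1 and 0, and housekeeping genes 4 and 5. The intervals of these ratios all hold 1.

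Receptor and channel genes of neurons showed both directions. Glutamate receptor genes had 87 and 73 pairs, a ratio of 0.839 (0.606 to 1.16), and GABA-A receptor genes 42 and 29, a ratio of 0.690 (0.415 to 1.13). Grin2b, an NMDA receptor subunit, had 4 and 10, and Grin2a 3 and 7. Grm7 had 13 and 17, Gria4 4 and 0, and Grm8 9 and 2. Potassium channel genes had 91 and 63 pairs, a ratio of 0.692 (0.494 to 0.965), with Kcnd2, an A-type channel, at 14 and 3, Kcnt2 at 14 and 3, and Kcnk9 at 0 and 5. Over the 20 genes of largest difference, chosen after their values were seen, Plk2, an activity-dependent kinase gene, had 5 and 16 loops and Pik3r1, a regulatory subunit of PI3-kinase, 4 and 14.

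Most members spanned no whole gene, 2955 sham and 2393 MCAO loops, 67.5% and 61.5% of members. Loops across 1 gene numbered 890 and 940, across 2 to 4 genes 454 and 486, and across 5 or more 80 and 74. Spanned genes numbered 1868 in sham and 1934 in MCAO, 9.04% and 9.36% of 20665 autosomal genes, and 786 were the same. The loops that spanned most genes crossed varied clusters. In sham, a loop of 10 PETs between Krtap19-5 and Krtap11-1 spanned 40 genes, with Krtap keratin-associated genes among them. One of 14 PETs from Adgrb1 to Ly6e spanned 17 genes with Arc, an activity-dependent synaptic gene, among them, and one of 13 PETs from Ap2b1 to Synrg spanned 17 with chemokine genes such as Ccl3 and Ccl5. In MCAO, a loop of 18 PETs from Stk4 to Wfdc2 spanned 19 genes, one of 20 PETs from Slc18b1 to Stx7 spanned all 15 Taar trace amine receptor genes, and one of 21 PETs from Ebna1bp2 to Slc2a1, the glucose transporter of the blood-brain barrier, spanned 14 with olfactory receptors. None of these 6 had a partner. Olfactory receptor genes were 5.34% of autosomal genes, but 1.87% of the genes spanned in sham and 2.02% in MCAO.

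Starts of lncRNAs were rarer in these anchors than in those of other mid-range loops. The rule leaves out anchors near protein-coding gene ends, and with them any lncRNA start beside such an end. Its part in this gap was not tested. Of members, 16.99% in sham (15.9 to 18.1) and 19.9% in MCAO (18.6 to 21.1) had the whole 300-base window around one in an anchor, against 27.6% and 28.1% of other mid-range loops. Per Mb of anchor there were 3.43 starts in sham and 4.43 in MCAO, as against 5.64 and 6.27 in the others. Inside 1 gene-free interval they were 2.86 and 3.48 per Mb. The lncRNAs met by most loops were Gm17750 with 4 and 4, Gm29260 with 5 and 3, Gm41011 with 3 and 4, and Gm4258 with 5 and 2, and 2 of these lie in the chromosome 13 hub.

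By chromosome, the ratio of members ranged from 0.736 (0.634 to 0.854) on chromosome 1, with 424 and 312 loops, to 1.32 (0.931 to 1.89) on chromosome 19, with 59 and 78. Chromosome 7 had 135 and 171 loops, a ratio of 1.27 (1.00 to 1.60). Chromosomes 1, 19 and 7 had ratios of 0.508, 0.849 and 0.924 at the sham depth. The X chromosome, outside the rule, had 86 loops that met its other parts in sham and 42 in MCAO.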

How the data were processed

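Hi-C loop lists were analysed, 1 per group. Per the submitters' processing notes, reads were handled with HiC-Pro and Bowtie2 on mm10, with versions not stated. The caller of loops is not given in the sources used here. PET and anchor read counts were deposited by the authors without scaling. The signal called density was deposited by the authors; it was read as PETs per kb of both anchors, scaled to 1000000 PETs, and gave the library totals. The enrichment ratio, its local form and the p-values are the authors' deposited values per loop, used only to rank loops within a list. Genes are RefSeq protein-coding genes on GRCm38.p6 (21887). Gene-free intervals are gaps between merged gene bodies.

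Shares have exact Clopper-Pearson intervals, ratios exact binomial intervals and medians order-statistic intervals. Whether PETs are independent molecules is unknown, and intervals cover at most counting error. Those of gene-loop pairs take pairs as independent and are too narrow where a loop is counted for several genes. Python 3.11.15, pandas 2.3.3, numpy 2.4.6 and scipy 1.17.1 were used. Class and partner assignment was tested on simulated data.

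Members and lists were chosen with earlier results of these data known. Named loops are, per list, the 5 with most PETs, the 5 without a partner with most PETs and the 3 that span most genes, and over both lists the 5 mutual pairs with most PETs. Named intervals are the 10 with most loops and the 5 with the largest difference in each direction. Named genes are members of the fixed lists with at least 3 loops in a list; some are not reported here. Others were chosen after their values were seen: Fos, Slc1a2, Slc1a3, Plk2, Pik3r1, and the lncRNAs and microRNAs. Alternatives by anchor width, by interval length, without Sox9, without 1 hairpin-rich anchor, and at the sham depth for classes and lists were added after seeing the data.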

Additional observations from a re-analysis of the deposited data

How the results depend on the processing

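The number of all members, their shares and their median span kept their direction under all alternatives tried. At the sham depth the number of members could only fall, since that step lowers MCAO numbers alone. Single classes, pairs and gene lists did not all keep theirs, and these values moved. The ratio of members was 0.839 with anchors widened by 10 kb, 0.833 at spans of 200 kb to 1 Mb, 0.95 (0.881 to 1.02) with at least 15 PETs, 0.934 (0.871 to 1.00) for loops on the better side of the median hypergeometric p-value and 0.626 at the sham depth, so with stricter lists its interval reached 1. The difference in the share among mid-range loops was -8.26 points with a fixed window of 15 kb at midpoints, -4.35 on the better side and -9.14 at the sham depth. The ratio of median spans was 0.919 with that window and 0.918 from 200 kb. With at least 15 PETs the share inside 1 interval differed by -10.1 points, that of loops spanning no gene by -8.11 and that in deserts by -10.7. With all RefSeq genes the desert share differed by -0.89 points. At the sham depth, an alternative added after seeing the data for classes and lists, ratios above 1 turned to 0.941 at both gene ends, 0.975 at 1 gene end, 0.930 for all other mid-range loops, 0.829 at 100 to 200 kb, 0.904 at anchors under 20 kb and 0.924 on chromosome 7. MCAO then held 26.0% of pairs at cadherins and protocadherins, 32.8% at axon guidance, 29.2% at synaptic adhesion, 41.3% at developmental factor and 31.9% at potassium channel genes. Unscaled PETs turned the median log2 ratio of pairs to 0.12. With at least 15 PETs the shares of some lists moved: MCAO held 62.5% of pairs at immediate early genes, 80.0% at hypoxia genes, 62.7% at glutamate receptor genes, 100.0% at microglia genes, 30.0% at excitatory neuron genes and 0% at housekeeping genes, against 46.8%, 35.7%, 45.6%, 50%, 52.8% and 55.6% in all loops. Leukocyte genes went from 26.7% to 0%. Most of these shares rest on few pairs at 15 PETs. In sham and MCAO there were 9 and 15 at immediate early, 1 and 4 at hypoxia and 0 and 4 at microglia genes. Glutamate receptor genes had 19 and 32, excitatory neuron genes 7 and 3, and housekeeping and leukocyte genes 3 and 0 each. The intervals were 28.4 to 99.5% for the hypoxia share and 39.8 to 100% for the microglia share. Cdh10 turned to 1 more loop in MCAO on the better side. The causes were not tested. Of 29 named loops, 20 were still members with 10 kb widening and 25 with at least 15 PETs. Heat shock genes had no pairs left at 15 PETs. No paired analysis was possible because each group has 1 library. A loop below 10 PETs is not listed, so an unlisted loop may lie just under that minimum.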
